A study of Danio rerio with 6 samples.

Results

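Translation initiation and elongation factor genes were followed in blood cells of the larval zebrafish kidney. They were taken as every row of the deposited table with an Ensembl gene ID whose symbol began with eif or eef and a digit, or was eefsec, which gave 82 genes of 27314 rows. The row EIF1B, spelled in capitals, was outside that rule. The rule used symbols and no measured value, but it was chosen with earlier results of these data known. The series compared larvae of Tg(coro1a:DenNTR), given DMSO or MTZ, with 3 libraries in each group. The genotype of both groups was labelled WT, and the transgene, a photoconvertible Dendra2 with NTR under the leukocyte promoter coro1a, was carried by the DMSO larvae too. NTR is commonly nitroreductase, which converts metronidazole (commonly abbreviated MTZ) to a toxin. Larvae were sampled at 9 dpf, which was 3.5 dpt, when a 405-nm laser applied for 30 s turned the kidney's labelled cells red. Each Smart-seq2 library came from 50 red cells sorted out of a pool of about 80 larvae. Nothing in the labels says whether a group's libraries came from different pools, so the spread between libraries may be technical. The p-values below rest on that spread, which the tests estimate for each gene with the help of all genes.

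Initiation factors bring the small ribosomal subunit and the initiator tRNA to the capped end of an mRNA and find the start codon. Elongation factors then deliver each aminoacyl-tRNA and move the ribosome along. Cells adjust both steps through a few regulators: kinases that phosphorylate eIF2, binding proteins that sequester the cap-binding factor eIF4E, and a kinase that inhibits eEF2. Dividing blood progenitors are known to make more protein than resting stem cells.

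Libraries held between 14058382 and 20674280 counts. Levels are CPM, the counts scaled to the TMM-adjusted library size. They are not scaled by gene length, so levels of different genes are not compared. The sorted cells expressed coro1a in every library, at 1287 to 2573 CPM. The other gene listed for the sorted cells, ptprc, ran from 15.7 CPM in DMSO 3 to 243 CPM in MTZ 2. The makeup of the libraries differed. Neutrophil markers (5 of 6 listed were found) summed to between 31.6 and 12039 CPM. Those of macrophages (7 of 7 found) summed to between 17.4 and 2176 CPM, and those of T cells (7 of 8 found) to between 145 and 880 CPM. Stem and progenitor markers (7 of 7 found) ran from 233 CPM in DMSO 2 to 1350 CPM in MTZ 1. Markers of skeletal muscle (7 of 7 found) reached 7048 CPM in DMSO 1 and at most 25.7 CPM elsewhere, and those of pancreas 389 CPM in MTZ 3. The 4 B cell markers were at 0 in all libraries. Thrombocyte and liver lists moved with the groups without overlap: thrombocyte markers (5 of 5 found) summed to 32.8, 160.5 and 46.4 CPM across DMSO 1 to 3 and 326, 256 and 253 CPM across MTZ 1 to 3, and liver markers (5 of 5 found) to 31.2, 26.3 and 95.9 CPM across DMSO 1 to 3 and 473, 709 and 262 CPM across MTZ 1 to 3. The part of these marker differences in the results below was not tested. Where a value without a library is given, all of that library was left out, not its marker transcripts alone. In pooled cells, fewer cells of a type and less RNA per cell cannot be told apart.

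Most of the translation machinery was detected in every library and overlapped between the groups, while eefsec, the elongation factor for selenocysteine, was present in DMSO and nearly absent in MTZ. Of the 82 genes, 70 had a count in all 6 libraries, 9 in some and 3 in none. The filter on low counts left 72 for testing, and of these 66 reached its minimum in all 6 libraries. The gene eefsec reached it in DMSO libraries alone, and the counts below include eefsec. MTZ was compared with DMSO by edgeR's quasi-likelihood test over 10283 genes, with a threshold of 0.05 on the Benjamini-Hochberg adjusted p. It called 0 of the 72 genes (0% of all genes tested were called), with a smallest adjusted p of 0.9997. At an unadjusted p under 0.05 there were 3 of the 72 (3.18% of all genes), which were eefsec, eif4a1a and eif4ebp1. Without eefsec there remained eif4a1a and eif4ebp1. DESeq2 called 1, eefsec, lower in MTZ, where it called 1.33% of all genes (0.747% higher and 0.583% lower). EdgeR without a filter called 0, against 0.29% of all genes (0.162% higher and 0.128% lower), and limma voom called 0 with and without quality weights (0% of all genes). The median log2 fold change of the 72 genes was -0.066, beside 0.018 over all genes tested, and 30 were above and 42 below 0, where 50.9% of all genes tested were above and 49.1% below. In 12 of the 72 DMSO and MTZ libraries had separate ranges, 6 higher and 6 lower in MTZ (eefsec among the lower), against 10.8% of all genes tested (5.58% higher and 5.17% lower). That count was 10 with upper quartile factors or with library totals alone, of which 9 were among the 12. Leaving out 1 library turned the sign of the fold change in 33 of the 72 genes for at least 1 choice of library, and the other 39 (14 above 0 and 25 below) kept theirs.

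The summed levels of initiation and elongation factors overlapped between the groups, and those of the regulators did not. That separation depended on which genes were summed and on the scaling of the libraries. Initiation factors (56 genes) summed to 16555, 15156 and 15827 CPM across DMSO 1 to 3 and 17281, 14314 and 16462 CPM across MTZ 1 to 3. Genes were classed by symbol, so this sum includes eif4a3, eif5a and eif5a2, whose roles are given below. The last 2 together held 2843 to 4245 CPM in each library. Elongation factors (14 genes) summed to 16009.7, 10439.5 and 12684 CPM across DMSO 1 to 3 and 12654, 10180.2 and 10809.5 CPM across MTZ 1 to 3. DMSO 1 was the highest of these libraries, and the others lay between 10180.2 and 12684 CPM. Cytosolic ribosomal protein genes, the other large set of the translation machinery, summed to 106121, 80869 and 92635 CPM across DMSO 1 to 3 and 83287, 87298 and 90268 CPM across MTZ 1 to 3, and DMSO 1 was the highest there as well. DMSO 1 was also the library with the muscle transcripts. The regulators (12 genes: kinases, eIF4E-binding proteins and methyltransferases) summed to 1526, 1586 and 1484 CPM across DMSO 1 to 3 and 1634, 1727 and 1880.3 CPM across MTZ 1 to 3. With TMM factors all 3 MTZ libraries lay above all DMSO libraries (no test was made of the sum). With library totals alone the groups overlapped, DMSO 2 being above MTZ 1 and MTZ 2. The gene eif4ebp1 alone had 951 ± 15.4 CPM under MTZ against 681 ± 90.1 CPM under DMSO (SD, n = 3 here and below). Leaving out each regulator in turn, which was chosen after seeing the data, the sums overlapped without eif4ebp1 and without eif4ebp2 and stayed apart in the other 10 cases. The 11 regulators without eif4ebp1 summed to 948, 849 and 755 CPM across DMSO 1 to 3 and 689, 758 and 941 CPM across MTZ 1 to 3. Without eif4ebp2 the highest DMSO library was at 1319 CPM and the lowest MTZ library at 1280.05 CPM.

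**Figure D1:**
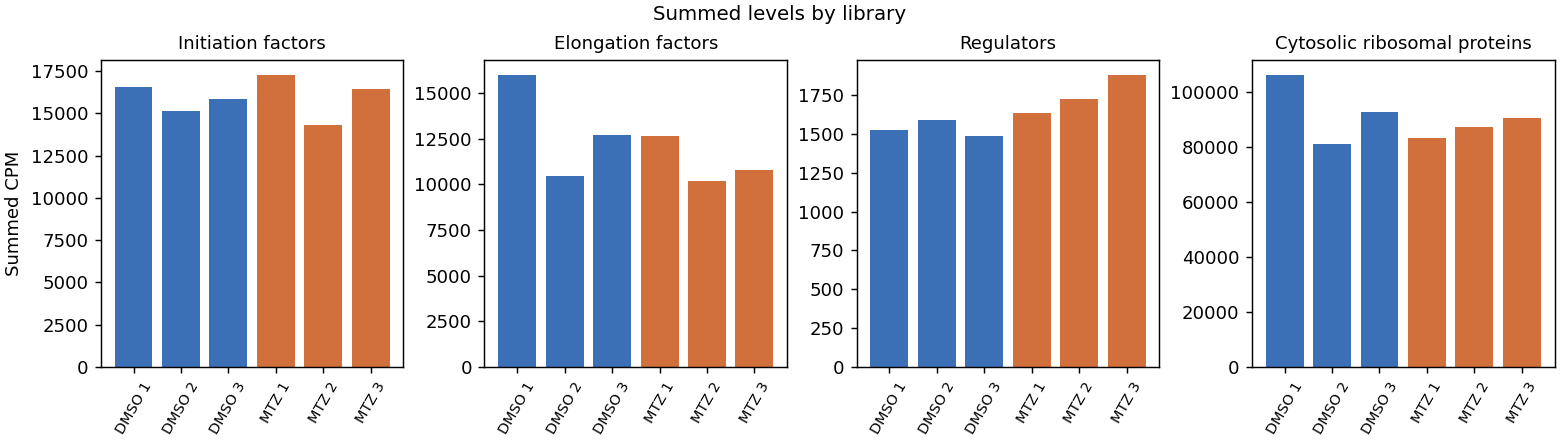
Summed CPM of initiation factors (classed by symbol, with eif4a3, eif5a and eif5a2 included), elongation factors, regulators and cytosolic ribosomal protein genes in each of the 6 libraries (blue: DMSO, orange: MTZ; bars start at 0). Elongation factors and ribosomal proteins were highest in DMSO 1. For the regulators the highest DMSO library, at 1586 CPM, lay below the lowest MTZ library, at 1634 CPM. That was not so for the sum without eif4ebp1, without eif4ebp2 or with library totals alone in place of TMM factors.

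In the family of eIF1 and eIF1A, factors of scanning and start codon choice, the groups overlapped in 4 of 4 genes. Of all genes tested, 10.8% did not overlap. The gene eif1b, for a close relative of eIF1, had 496, 292 and 394 CPM across DMSO 1 to 3 and 398, 304 and 542 CPM across MTZ 1 to 3, with no order between the groups. The gene eif1axb, for eIF1A, had 192, 334 and 323 CPM across DMSO 1 to 3 and 549, 414 and 305 CPM across MTZ 1 to 3. Its highest libraries were MTZ 1 and MTZ 2, but MTZ 3 lay below DMSO 2 and DMSO 3 (log2 fold change 0.58 ± 0.33, edgeR adjusted p = 0.9997). Its duplicate eif1axa stayed between 185 and 240.2 CPM in all libraries. The fourth gene, eif1ad, placed in this family by its symbol alone, had 90.8 ± 26.05 CPM under MTZ against 108 ± 18.3 CPM under DMSO.

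The subunit genes of eIF2, which carries the initiator tRNA, overlapped between the groups except eif2s1b (10.8% of all genes tested did not overlap). The beta subunit gene eif2s2 had 471, 516 and 477 CPM across DMSO 1 to 3 and 469, 502 and 487 CPM across MTZ 1 to 3. All 6 libraries lay close together (log2 fold change -0.0051 ± 0.21). The alpha subunit, the target of the eIF2 kinases, has a duplicated gene in zebrafish. The copy eif2s1a had 103, 194 and 257 CPM across DMSO 1 to 3 and 222, 137 and 132 CPM across MTZ 1 to 3, with overlapping groups, and eif2s1b had 192, 167 and 197 CPM across DMSO 1 to 3 and 229, 266 and 204 CPM across MTZ 1 to 3, all MTZ libraries above all DMSO libraries (log2 fold change 0.33 ± 0.29). With library totals alone the groups of eif2s1b overlapped. The gamma subunit gene eif2s3 had 346 ± 109.9 CPM under MTZ against 435 ± 68.3 CPM under DMSO. The genes eif2a and eif2d, for factors that can bring tRNA to the ribosome without eIF2, had 118 ± 19.6 against 123 ± 43.7 CPM and 46.7 ± 38.9 against 42.6 ± 9.11 CPM (MTZ against DMSO).

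Of the multi-subunit complexes eIF2, eIF2B, eIF3 and eEF1B, the family median farthest from 0 was that of eIF2B, the exchange factor that recharges eIF2 with GTP and is blocked by phosphorylated eIF2. Of its 5 subunit genes 4 had log2 fold changes below 0, the family median being -0.74 (log2 fold change). Outside these complexes, eEF2 (-1.67, 2 genes tested), eIF4B with eIF4H (-0.75) and the single gene eefsec (-8.75) had lower medians. Summed over the family, there were 662, 525 and 768 CPM across DMSO 1 to 3 and 460.3, 491 and 403 CPM across MTZ 1 to 3, and the groups did not overlap. The alpha subunit gene eif2b1 had 182, 208 and 161 CPM across DMSO 1 to 3 and 91.9, 147 and 89.7 CPM across MTZ 1 to 3. Every MTZ library lay below every DMSO library (log2 fold change -0.75 ± 0.38, edgeR unadjusted p = 0.0819, adjusted p = 0.9997). The same held for the gamma subunit gene eif2b3, with 117, 89.9 and 118 CPM across DMSO 1 to 3 and 79.9, 75.8 and 67.6 CPM across MTZ 1 to 3. The beta and delta subunit genes eif2b2 and eif2b4 had 90.6 ± 24.4 against 159.8 ± 67.9 CPM and 96.5 ± 36.97 against 161 ± 81.3 CPM, with overlapping groups. The subunit on the other side was eif2b5, for the catalytic epsilon subunit, which had 50.8, 21.98 and 43.8 CPM across DMSO 1 to 3 and 70.4, 98.6 and 71.7 CPM across MTZ 1 to 3. All its MTZ libraries were above its DMSO libraries (log2 fold change 1.04 ± 0.68, edgeR unadjusted p = 0.162, adjusted p = 0.9997). Leaving out each library in turn gave fold changes (log2) from -1.01 to -0.62 for eif2b1 and from 0.77 to 1.30 for eif2b5. Summed over families, the groups did not overlap in 4 of the 20 families, which were eIF2B, eIF4B with eIF4H, the eIF4E-binding proteins and eefsec. The last is a single gene that reached the filter's minimum in DMSO libraries alone. For eIF4B with eIF4H the margin was narrow, DMSO 1 being at 249.7 CPM and MTZ 1 at 238.1 CPM. With library totals alone the groups of that family overlapped. Of all single genes tested, 10.8% did not overlap. No such share was computed for sums of several genes, so the count of families has no like background.

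The kinases that phosphorylate eIF2 and so slow initiation overlapped between the groups where they were tested. Among all genes tested, 10.8% did not overlap. The gene eif2ak1, whose mammalian counterpart is activated by lack of heme, had 22.4, 66.4 and 65.4 CPM across DMSO 1 to 3 and 0.0540, 58.97 and 25.5 CPM across MTZ 1 to 3, with 1 count in MTZ 1 and an otherwise similar range in both groups. The gene eif2ak3, for the sensor kinase of the endoplasmic reticulum, had 2.25, 4.21 and 6.18 CPM across DMSO 1 to 3 and 5.83, 6.002 and 1.74 CPM across MTZ 1 to 3. The gene eif2ak2, whose mammalian counterpart senses double-stranded RNA, was seen in DMSO 1 alone, at 5.83 CPM, and was not tested.

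Genes for eIF3, the large scaffold that holds the small subunit, were split, with 7 of 16 tested genes higher and 9 lower in MTZ and a family median log2 fold change of -0.062. The gene eif3ba had 664, 889 and 896 CPM across DMSO 1 to 3 and 996, 791 and 616 CPM across MTZ 1 to 3. The gene eif3ea had 1057, 757 and 679 CPM across DMSO 1 to 3 and 831, 579 and 709 CPM across MTZ 1 to 3. Both ranges overlapped between groups. The gene eif3c, for a core subunit, had 87.2, 202 and 232 CPM across DMSO 1 to 3 and 49.98, 87.2 and 132 CPM across MTZ 1 to 3. DMSO 1 lay in the MTZ range and the other DMSO libraries above it (log2 fold change -0.95 ± 0.53, edgeR adjusted p = 0.9997), and leaving out each library in turn gave -1.34 to -0.65. The gene eif3f was lower in every MTZ library by a small margin, 321 ± 12.8 CPM under MTZ against 355 ± 36.4 CPM under DMSO, and its groups overlapped with upper quartile factors. The remaining tested eIF3 genes had log2 fold changes between -0.99 for eif3eb and 0.35 for eif3jb. That of eif3eb rested on DMSO 1, the highest library at 74.5 CPM, and was 0.73 without it. The gene eif3bb had 11.04 CPM in DMSO 1 and at most 1 count elsewhere and was not tested.

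**Figure D2:**
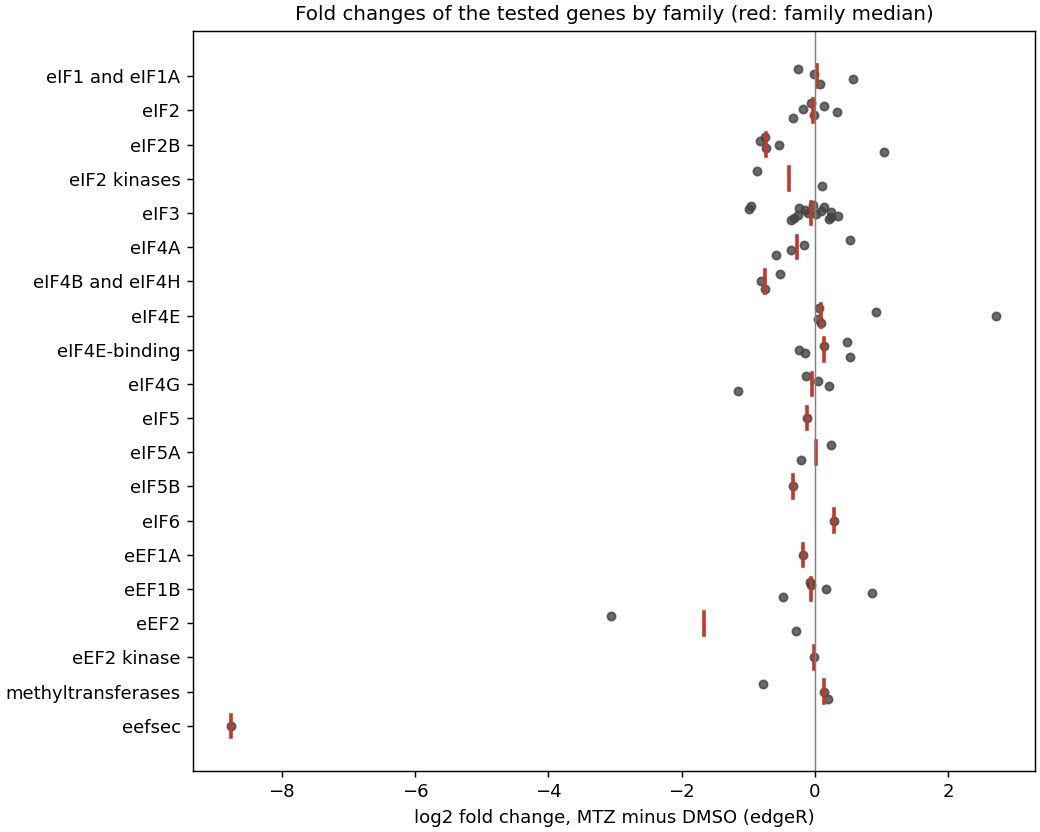
Log2 fold change (MTZ minus DMSO, edgeR) of the 72 tested genes by family, each point 1 gene and each red bar the family median. The family median was -1.67 in eEF2 (2 genes tested), -0.74 in eIF2B and -0.75 in eIF4B with eIF4H. The 5 tested eIF4E genes lay above 0, and eefsec stood apart at -8.75.

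The eIF4A genes, for the RNA helicase that unwinds the leader of an mRNA, differed in direction. The gene eif4a1a had 903, 1237 and 803 CPM across DMSO 1 to 3 and 1587, 1252 and 1394 CPM across MTZ 1 to 3. All MTZ libraries lay above all DMSO libraries, MTZ 2 and DMSO 2 by a narrow margin (log2 fold change 0.52 ± 0.23, edgeR unadjusted p = 0.0487, adjusted p = 0.9997). With upper quartile factors or library totals alone the groups overlapped. Its duplicate eif4a1b had 592, 684 and 493 CPM across DMSO 1 to 3 and 482, 396 and 700.4 CPM across MTZ 1 to 3, with overlapping groups. Of the counts of the pair, eif4a1a took 60.4, 64.4 and 61.97% across DMSO 1 to 3 and 76.7, 75.99 and 66.6% across MTZ 1 to 3, a share that does not depend on library scaling, and its groups did not overlap. This was 1 of 13 duplicate pairs compared, and in the other 12 the shares overlapped. Of single genes tested, 10.8% did not overlap, and no such share was computed over other duplicate pairs. The separation of 1 pair in 13 is therefore no added evidence for eif4a1a. The gene eif4a2 had 56.3, 16.02 and 23.5 CPM across DMSO 1 to 3 and 13.01, 30.9 and 30.9 CPM across MTZ 1 to 3. The gene eif4a3, whose product is a core protein of the exon junction complex on spliced mRNA rather than an initiation factor, had 624, 385 and 440.4 CPM across DMSO 1 to 3 and 371, 286 and 315 CPM across MTZ 1 to 3. All MTZ libraries were below all DMSO libraries (log2 fold change -0.58 ± 0.27, edgeR unadjusted p = 0.0670, adjusted p = 0.9997). Without DMSO 1 the fold change was -0.338.

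The cofactors eIF4B and eIF4H, which stimulate the helicase, had log2 fold changes below 0 in 3 of 3 genes, of which 2 kept that sign with any 1 library left out (median log2 fold change -0.75). The gene eif4bb had 209, 137 and 265 CPM across DMSO 1 to 3 and 101, 149 and 99.7 CPM across MTZ 1 to 3. MTZ 2 lay above DMSO 2 and the other MTZ libraries below every DMSO library (log2 fold change -0.80 ± 0.39, edgeR unadjusted p = 0.0738, adjusted p = 0.9997). Its duplicate eif4ba had 8.63, 4.15 and 107 CPM across DMSO 1 to 3 and 39.4, 33.5 and 10.9 CPM across MTZ 1 to 3. DMSO 3 was the highest and the other DMSO libraries lay below every MTZ library, so that the log2 fold change of -0.52 became 2.13 without DMSO 3. The gene eif4h had 31.6, 135 and 144 CPM across DMSO 1 to 3 and 97.7, 19.6 and 66.9 CPM across MTZ 1 to 3, high in DMSO 2 and DMSO 3 and lowest in MTZ 2.

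Cap-binding eIF4E genes had log2 fold changes above 0 in 5 of 5 tested genes (median 0.088), but only eif4e3 and eif4e2rs1 kept that sign with any 1 library left out. The lowest values were -0.24 for eif4e1c, -0.14 for eif4ea and -0.27 for eif4eb. The gene eif4e1c had 229.6, 259 and 413 CPM across DMSO 1 to 3 and 436, 148 and 356 CPM across MTZ 1 to 3, with overlapping groups. The classical forms eif4ea and eif4eb had 73.6 ± 21.8 against 70.99 ± 21.8 CPM and 30.6 ± 12.1 against 28.8 ± 13.5 CPM (MTZ against DMSO). The gene eif4e2rs1, related to the repressive cap-binding form, had 74.5, 102 and 21.6 CPM across DMSO 1 to 3 and 177, 93.8 and 104 CPM across MTZ 1 to 3, with overlapping groups. The gene eif4e3, for a divergent cap-binding protein, had the largest difference upward, with 0.156, 41.6 and 0.132 CPM across DMSO 1 to 3 and 81.1, 99.6 and 96.2 CPM across MTZ 1 to 3. Its counts were 2, 711 and 2 under DMSO against 1502, 1609 and 1937 under MTZ, so that DMSO 2 held nearly all of the DMSO signal. The log2 fold change was 2.72 ± 1.85 (edgeR unadjusted p = 0.178, adjusted p = 0.9997), and it moved to 9.27 without DMSO 2 and to 2.15 and 2.14 without DMSO 1 or DMSO 3. The thrombocyte markers given above were likewise low in DMSO 1 and DMSO 3, intermediate in DMSO 2 and high in MTZ, and their part in the difference was not tested. The gene eif4e1b had no counts, and eif4e2 had at most 11.4 CPM, in MTZ 3.

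Binding proteins that hold eIF4E away from the cap complex until mTOR phosphorylates them include eif4ebp1. It had 577, 738 and 729 CPM across DMSO 1 to 3 and 946, 969 and 939.7 CPM across MTZ 1 to 3. The MTZ libraries lay close together and above every DMSO library (log2 fold change 0.48 ± 0.20, edgeR unadjusted p = 0.0440, adjusted p = 0.9997). Leaving out each library in turn gave 0.39 to 0.55, and the groups stayed apart under each of the 4 scalings. The other binding proteins did not share this pattern. The gene eif4ebp2 had 355, 407 and 165 CPM across DMSO 1 to 3 and 354, 319.9 and 343 CPM across MTZ 1 to 3, eif4ebp3 had 94.6 ± 54.9 CPM under MTZ against 112 ± 92.7 CPM under DMSO, and eif4ebp3l had 135, 114 and 152 CPM across DMSO 1 to 3 and 150.3, 44.2 and 167 CPM across MTZ 1 to 3 with MTZ 2 the lowest. The gene eif4enif1, for a shuttling eIF4E-binding repressor, was at 35.9 CPM in DMSO 1 and at 12 and 15 counts in the other DMSO libraries, against 9.39 to 23.7 CPM in MTZ.

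**Figure D3:**
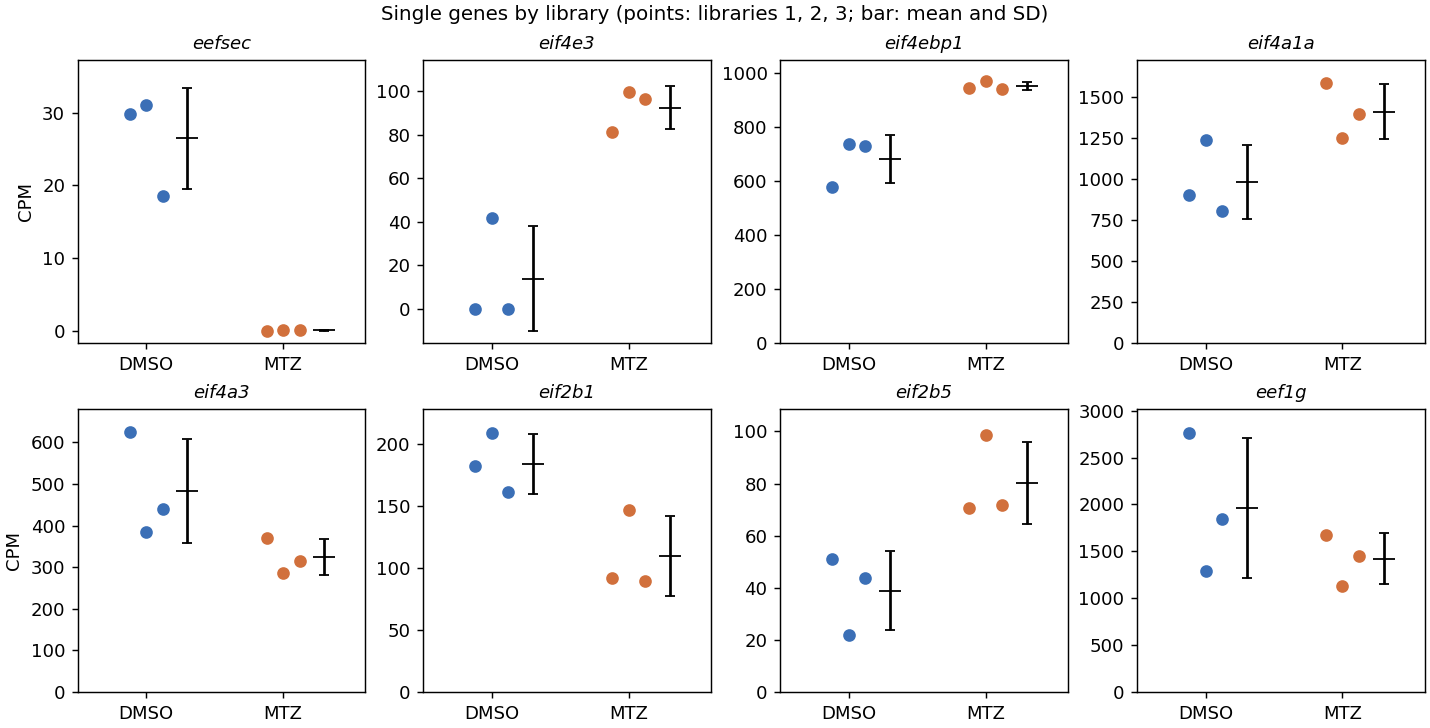
Levels in CPM of 8 genes in each library (points, libraries 1 to 3 from left to right within a group) with the mean and SD of each group of 3. The groups did not overlap for eefsec, eif4e3, eif4ebp1, eif4a1a, eif4a3, eif2b1 and eif2b5, and they overlapped for eef1g. All but eef1g were among the genes named for their small p, so these 8 do not stand for the 72 tested. Of the 72, 12 did not overlap, against 10.8% of all genes tested. With upper quartile factors or library totals alone the groups of eif4a1a overlapped.

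The scaffold eIF4G, which joins the cap-binding factor to the helicase, overlapped between the groups in 3 of 4 tested genes (10.8% of all genes tested did not overlap). The gene eif4g2b, for a relative that lacks the eIF4E-binding part, had 339.7, 317 and 374 CPM across DMSO 1 to 3 and 417, 378 and 398 CPM across MTZ 1 to 3. Its MTZ libraries were above its DMSO libraries (log2 fold change 0.21 ± 0.23), and the groups overlapped with upper quartile factors or library totals alone. The gene eif4g1a had 315 ± 55.9 CPM under MTZ against 347 ± 85.99 CPM under DMSO. The genes eif4g2a and eif4g3b varied within both groups, with 19.5, 87.5 and 114 CPM across DMSO 1 to 3 and 100.1, 116 and 11.9 CPM across MTZ 1 to 3 for eif4g2a and 38.9, 48.4 and 11.97 CPM across DMSO 1 to 3 and 40.3, 1.73 and 2.43 CPM across MTZ 1 to 3 for eif4g3b. The gene eif4g3a was seen at 10.1 CPM in DMSO 1 and at most 1 count elsewhere.

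Factors of start codon recognition and subunit joining overlapped between the groups (10.8% of all genes tested did not overlap). The gene eif5, whose product makes eIF2 hydrolyse its GTP, had 455, 255 and 225 CPM across DMSO 1 to 3 and 434, 219 and 209 CPM across MTZ 1 to 3, with DMSO 1 and MTZ 1 high. The gene eif5b, for the subunit joining factor, had 105, 178 and 141 CPM across DMSO 1 to 3 and 118, 118 and 103 CPM across MTZ 1 to 3. The gene eif5a, for the hypusine-bearing factor that helps ribosomes past difficult peptide bonds, had 3213, 1792 and 2178 CPM across DMSO 1 to 3 and 2780.03, 2302 and 3407 CPM across MTZ 1 to 3, and its relative eif5a2 had 802 ± 134 CPM under MTZ against 929 ± 132 CPM under DMSO. The gene eif6, for the factor that keeps large subunits from joining early, had 274, 307 and 363 CPM across DMSO 1 to 3 and 470.1, 311 and 372 CPM across MTZ 1 to 3, MTZ 1 being the highest (log2 fold change 0.29 ± 0.27).

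Of the elongation factors, eEF1A delivers aminoacyl-tRNA, and of its 4 genes eef1a1l1 held all counts but 1. It had 9272, 6086 and 7740.2 CPM across DMSO 1 to 3 and 7823, 6416 and 6154 CPM across MTZ 1 to 3. It took 21.1% to 27.2% of the summed CPM of the 82 genes. The groups overlapped, with DMSO 1 the highest (log2 fold change -0.18 ± 0.19), and without DMSO 1 the fold change was -0.0118. The genes eef1a2, known in mammals as the form of muscle and neurons, and eef1a1l2 had no counts in any library, DMSO 1 with its muscle transcripts included, and eef1a1a had 1 count in MTZ 3. Reads of the eEF1A copies can be split or merged by the counting, so their division is uncertain.

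Summed over 5 genes, the exchange factor eEF1B, which recharges eEF1A, was likewise highest in DMSO 1. That library had 4841 CPM and the others 2465 to 3273 CPM. Single genes differed, and eef1db and eef1e1 were highest in MTZ 2. The gene eef1g, for its scaffold subunit, had 2764, 1285 and 1849 CPM across DMSO 1 to 3 and 1671, 1132 and 1454 CPM across MTZ 1 to 3. MTZ 2 was the lowest, and DMSO 2 lay within the MTZ range (log2 fold change -0.47 ± 0.30, edgeR unadjusted p = 0.149, adjusted p = 0.9997). Without DMSO 1 it was -0.129. The catalytic subunit gene eef1b2 had 1168, 938 and 762 CPM across DMSO 1 to 3 and 881, 746 and 1104 CPM across MTZ 1 to 3. The delta subunit genes eef1da and eef1db had 463 ± 103 against 484 ± 256 CPM and 121 ± 15.9 against 107 ± 15.9 CPM (MTZ against DMSO). The gene eef1e1, whose mammalian product sits in the aminoacyl-tRNA synthetase complex, had 17.96, 68.6 and 28.3 CPM across DMSO 1 to 3 and 45.6, 104 and 59.4 CPM across MTZ 1 to 3, with overlapping groups.

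The translocation factor eEF2 has 4 genes by the rule, of which eef2b had 1812, 1506 and 1875 CPM across DMSO 1 to 3 and 1615, 1289 and 1382 CPM across MTZ 1 to 3. The groups overlapped, with MTZ 1 above DMSO 2 (log2 fold change -0.28 ± 0.19, edgeR unadjusted p = 0.178, adjusted p = 0.9997). The tandem copy eef2a.1 had 53.8, 6.31 and 47.7 CPM across DMSO 1 to 3 and 2.16, 10.7 and 0.0497 CPM across MTZ 1 to 3. DMSO 1 and DMSO 3 were the high libraries, and DMSO 2 lay within the MTZ range (log2 fold change -3.06 ± 2.04, and -5.01 to -2.48 with each library left out in turn). The genes eef2a.2 and eef2l2 reached at most 0.468 and 1.997 CPM and were not tested. The inhibitory kinase gene eef2k had 30.01, 90.5 and 71.6 CPM across DMSO 1 to 3 and 11.3, 119 and 59.1 CPM across MTZ 1 to 3, and the MTZ range enclosed the DMSO range.

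The largest fold change was that of eefsec, which delivers selenocysteinyl-tRNA to the ribosome at recoded stop codons. It had 29.9, 31.1 and 18.5 CPM across DMSO 1 to 3 and 0, 0.0619 and 0.0993 CPM across MTZ 1 to 3, that is 384, 532 and 281 counts in DMSO and 0, 1 and 2 counts in MTZ. A count of 3 corresponded to 0.149 to 0.233 CPM, so the gene was under that floor in every MTZ library. The ratio of the pooled DMSO and MTZ rates was 484, with an exact 95% counting interval from 165 to 2352. Without molecular identifiers, PCR copies count as separate reads, so the interval may be too narrow even for counting error. It does not cover the spread between libraries. DESeq2 called eefsec with an adjusted p of 1.141e-05. The edgeR test did not (unadjusted p = 0.00855, adjusted p = 0.9997), nor did limma voom (adjusted p = 0.3849) or edgeR without a filter (adjusted p = 0.586). Of the 72 tested genes it alone reached the minimum of the filter in DMSO libraries alone. At most 3 counts in every MTZ library together with at least 10 CPM in every DMSO library occurred in 11 of the genes tested, or 0.107%, eefsec among them. This pattern describes the values of eefsec, so its place among the 11 was given in advance and the share is no test of the gene. The mirrored pattern occurred in 22, or 0.214%, none of them a translation factor gene. Each library held the RNA of 50 cells.

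The methyltransferases that modify elongation factors had 3 tested genes, 1 of them without overlap between the groups (10.8% of all genes tested). The gene eef1akmt1, for an eEF1A lysine methyltransferase, had 92.6, 94.5 and 117 CPM across DMSO 1 to 3 and 45.1, 55.7 and 76.3 CPM across MTZ 1 to 3. All MTZ libraries were below all DMSO libraries (log2 fold change -0.78 ± 0.51, edgeR adjusted p = 0.9997). The genes eef1akmt2 and eef2kmt had 34.5 ± 22.1 against 31.2 ± 6.23 CPM and 33.9 ± 5.94 against 29.6 ± 18.05 CPM (MTZ against DMSO).

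Zebrafish keep duplicates of many of these genes, and for most pairs 1 copy took most counts in every library. The first copy's share of the pair's counts ran over the 6 libraries from 93.4% to 99.99% for eif3ea with eif3eb, from 82.3% to 100% for eif3ha with eif3hb, from 71.5% to 86.1% for eef1da with eef1db, and from 63.05% to 80.2% for eif5a with eif5a2. More even pairs were eif1axa with eif1axb (29.3% to 52.5%), eif2s1a with eif2s1b (33.96% to 56.5%) and eif3ja with eif3jb (30.8% to 54.5%). The pair eif4ba with eif4bb was uneven between libraries, with eif4ba at 3.96, 2.95 and 28.8% across DMSO 1 to 3 and 28.1, 18.3 and 9.83% across MTZ 1 to 3. Shares also depend on transcript length and on how reads of close copies were assigned.

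As a set, the translation factor genes differed less between libraries of the same group than most genes. The SD within groups of log2(CPM + 0.5) had a median of 0.439 over the 72 tested genes and 1.63 over all 10283. Spread falls with level in these libraries. Over a mean of 100 CPM the medians were 0.336 for 46 translation factor genes and 0.486 for all 1905 genes. Levels over that cut were not matched, and the part of level in the remaining difference was not tested. In the same 46 genes the library of lowest level was MTZ 2 in 15, against 5 to 7 for each other library, and DMSO 1 was the highest in 11, against 5 to 9. Genes under that level could be at or near 0 in single libraries: eif3hb had 320, 5 and 514 counts under DMSO and 29, 0 and 1079 under MTZ, and eif3eb had 1 count in MTZ 2 and 958 in DMSO 1.

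**Figure D4:**
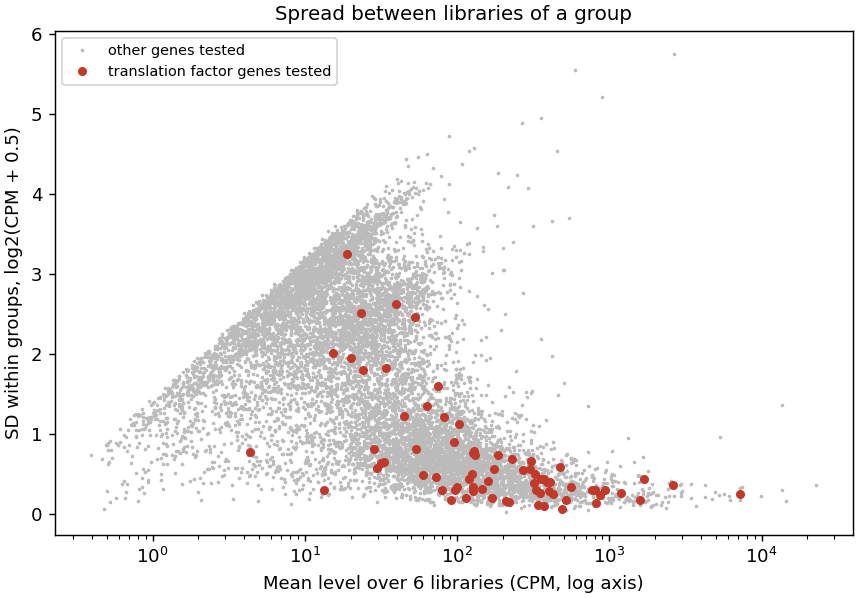
SD within groups of log2(CPM + 0.5) against the mean level over the 6 libraries (log axis) for the 72 tested translation factor genes (red) and the other tested genes (grey). Red points at levels over 100 CPM lie mostly under an SD of 1, while genes of low level such as eif3hb spread widely.

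**Figure D5:**
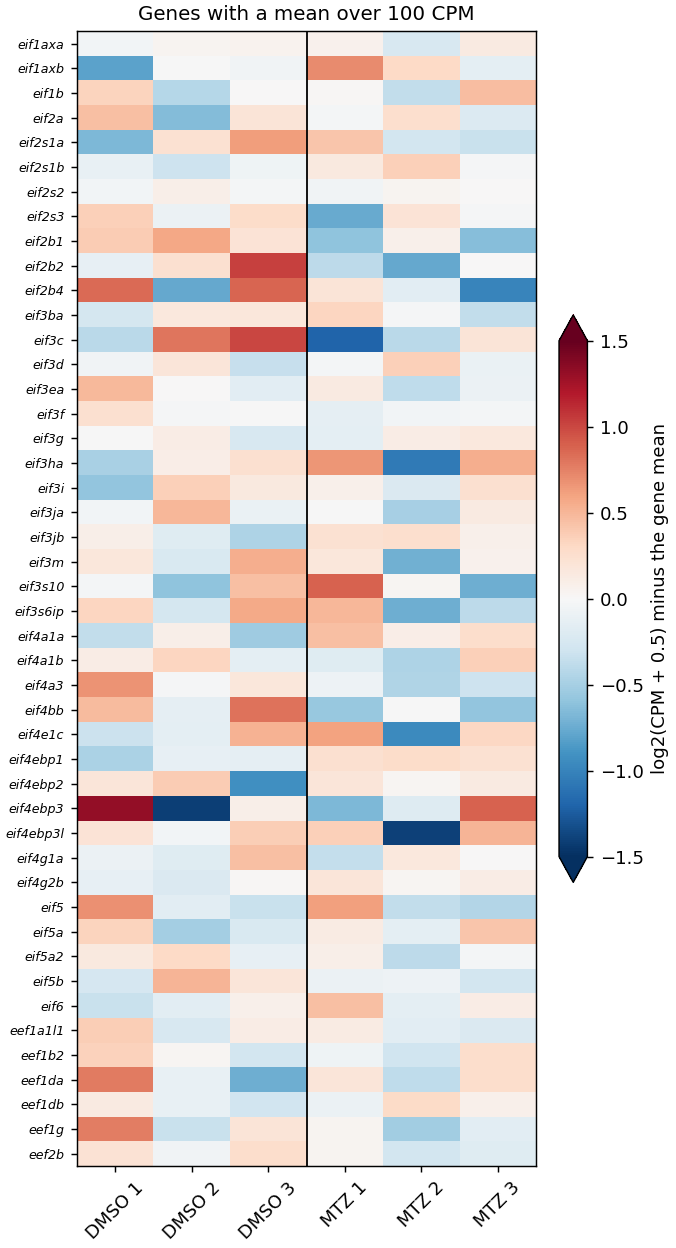
Level of the 46 genes with a mean over 100 CPM in each library, as log2(CPM + 0.5) minus the gene's mean over the 6 libraries, ordered by family (DMSO left of the line, MTZ right). Colours end at 1.5 in both directions, and in 7 of 46 genes the 3 DMSO and the 3 MTZ libraries do not overlap (15.2%, against 11.6% of the 1905 genes over that level), among them eif2b1, eif4a3 and eif4ebp1.

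Other genes of translational control were taken from a list of 49, of which 46 were found and 38 tested. EdgeR called 0 of them (0% of all genes), DESeq2 called 1 (1.33% of all genes), and 18 had a log2 fold change above 0 and 20 below, the median log2 fold change being -0.024. At an unadjusted p under 0.05 there were 5 of the 38, against 3.18% of all genes. In 8 genes DMSO and MTZ libraries had separate ranges (4 higher and 4 lower, against 10.8% of all genes), and these are named here because of it. The list was drawn up with earlier results of these data known, so neither share is a test of the list. The stress-response transcription factor gene atf4b had 587, 418 and 481 CPM across DMSO 1 to 3 and 791, 990.5 and 727 CPM across MTZ 1 to 3 (log2 fold change 0.76 ± 0.24), whereas its duplicate atf4a had 113 ± 37.8 CPM under MTZ against 116 ± 23.00 CPM under DMSO. The ribosome recycling factor gene abce1 had 252, 233 and 244 CPM across DMSO 1 to 3 and 509, 398 and 359.6 CPM across MTZ 1 to 3 (log2 fold change 0.80 ± 0.26). The poly(A)-binding protein gene pabpc1b had 3.73, 18.1 and 9.40 CPM across DMSO 1 to 3 and 101, 40.03 and 67.2 CPM across MTZ 1 to 3. In these 3 genes every MTZ library was above every DMSO library. The mTOR activator gene rheb had no counts in DMSO and 1.08, 5.63 and 1.74 CPM in the MTZ libraries. It reached the filter's minimum in MTZ libraries alone, and without it the counts above were 4 at an unadjusted p under 0.05 and 7 with separate ranges. The gene for its inhibitor, tsc2, was the one called by DESeq2 (adjusted p = 0.0437; edgeR adjusted p = 0.9997), with 49.4, 10.6 and 29.8 CPM across DMSO 1 to 3 and 0.648, 0.371 and 2.78 CPM across MTZ 1 to 3. The termination factor gene etf1b had 253, 349 and 367 CPM across DMSO 1 to 3 and 197, 173 and 191 CPM across MTZ 1 to 3 (log2 fold change -0.79 ± 0.28). The eIF4E kinase gene mknk2b had 189 ± 73.8 against 326 ± 58.01 CPM and denr, for a factor of reinitiation, had 118 ± 19.7 against 155 ± 18.5 CPM (MTZ against DMSO), both lower in every MTZ library. The mTOR kinase gene mtor had 0.0778, 76.4 and 16.1 CPM across DMSO 1 to 3 and 31.5, 85.3 and 17.9 CPM across MTZ 1 to 3, with no order between the groups.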

How the data were processed

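Values were estimated counts, deposited by the authors in 1 unscaled table. The submitters' processing notes name HISAT2 and GRCz11. How reads were assigned to genes, with which annotation and whether by strand, is not given in the sources used here, so overlapping genes and close copies are uncertain. Between 8.31% and 9.90% of nonzero values had decimals, and values were rounded to whole counts. Symbols came from the table, and no coordinates or sequences were used. MTZ was compared with DMSO with edgeR 4.0.16 on R 4.3.3 (quasi-likelihood test, two-sided, TMM factors, default filter with a minimum count of 10, group alone), with Benjamini-Hochberg adjustment over all 10283 genes tested. Standard errors are |log2 fold change| over the square root of F, and means carry the SD over 3 libraries. Alternatives were DESeq2 1.42.0, limma 3.58.1 (voom), other scalings and filters, robust dispersion, a replicate block and leaving out each library. The genes, families and lists were chosen with earlier results of these data known. Named genes were the 5 higher and 5 lower of smallest p, 15 given by name, the gene of highest mean CPM in each family (not scaled by length, for naming only) and those DESeq2 or unfiltered edgeR called (31 genes). Others were named after their values were seen.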

Additional observations from a re-analysis of the deposited data

How the results depend on the processing

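The count of called translation factor genes was 0 in every edgeR and limma run and moved to 1 with DESeq2. Over all genes the count moved from 0 to 130 with DESeq2 and to 52 without a filter on low counts. The median log2 fold change of the tested translation factor genes ran from -0.11 to -0.017 over the alternatives. With a library left out the sign turned in 33 of 72 genes, in eif3eb and eif4ba from -0.99 and -0.52 to 0.73 and 2.13. The log2 fold change of eif4e1c was -0.038 with the replicate block, that of eif2s2 was 0.0056 without a filter, and that of eif2ak3 was -0.028 with limma voom and -0.12 with quality weights. For the named genes that turned with a library left out, it ran from -0.53 to 0.27 for eif5, -0.45 to 0.14 for eif2s1a, -0.24 to 0.40 for eif4e1c, -0.16 to 0.29 for eif1b, -0.67 to 0.35 for eif4a2, -0.85 to 0.49 for eef2k, -0.45 to 0.26 for eif4ebp3l, -0.23 to 0.11 for eef1b2, -0.021 to 0.044 for eif2s2, -0.20 to 0.14 for eif3ba and -0.19 to 0.50 for eif2ak3. The cause of these turns was not tested. For eefsec it ran from -9.44 to -8.21, and over the alternatives its adjusted p ran from 1.141e-05 (DESeq2) to 1. The labels do not say whether replicate numbers pair the libraries. Same-numbered libraries had correlations of deviations of -0.013, 0.0037 and -0.047, and the replicate block gave 0 called genes and a median of -0.056. With 3 libraries a group, these values cannot exclude a pairing. The biological coefficient of variation was 1.42 as a common value over all genes tested. The translation factor genes spread less, with a median SD within groups of 0.439 against 1.63 over all genes (log2(CPM + 0.5)). EdgeR's standard errors also draw on the spread of other genes. For eif2s2 the SD within groups was 0.061 and the standard error 0.21. With 3 libraries of 50 cells a group, edgeR did not call moderate differences in single translation factor genes.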

Other observations

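After the values of eefsec were seen, the other genes of selenocysteine incorporation and the selenoprotein genes were looked up. Of 5 genes of the machinery found, 4 were tested, 2 higher and 2 lower in MTZ, and edgeR and DESeq2 called 0. The untested gene, secisbp2, had 0 counts in every library of both groups. The gene sepsecs, for the enzyme that completes selenocysteinyl-tRNA, had 21.5, 28.9 and 35.9 CPM across DMSO 1 to 3 and 26.8, 94.4 and 0.149 CPM across MTZ 1 to 3. The selenophosphate synthetase gene sephs2 had 39.2, 70.6 and 113 CPM across DMSO 1 to 3 and 123, 2.41 and 9.43 CPM across MTZ 1 to 3. The gene trnau1apa, for a protein associated with that tRNA, had 143, 133 and 193 CPM across DMSO 1 to 3 and 69.9, 29.1 and 136 CPM across MTZ 1 to 3. The groups overlapped in all 3. They also overlapped in trnau1apb, with 193, 7.89 and 142 CPM across DMSO 1 to 3 and 55.8, 152 and 217 CPM across MTZ 1 to 3. Of 27 selenoprotein genes found, 20 were tested, 12 with a higher and 8 with a lower mean in MTZ (median log2 fold change 0.24), and edgeR and DESeq2 called 0. The glutathione peroxidase gene gpx4b had 364, 499 and 379 CPM across DMSO 1 to 3 and 257, 322 and 426 CPM across MTZ 1 to 3, with overlapping groups. In 2 of the 20, selenow1 and selenok, every MTZ library lay above every DMSO library, against 10.8% of all genes without overlap. The gene selenow1 had 178, 78.9 and 169 CPM across DMSO 1 to 3 and 285, 186 and 283 CPM across MTZ 1 to 3, and selenok had 48.9, 64.1 and 69.8 CPM across DMSO 1 to 3 and 108, 81.9 and 78.95 CPM across MTZ 1 to 3. At an unadjusted p under 0.05 there were 0 of the 24 tested genes of both lists, against 3.18% of all genes. Transcripts of selenoproteins were present in MTZ libraries in which eefsec was at most 2 counts.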
